A study of Mus musculus with 14 samples.

Results

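The cell cycle and DNA replication genes described here are 40 genes chosen by symbol, out of the 12924 genes listed in each of the deposited tables. All 40 were present in both tables. They were divided by the phase they are best known for into 16 S phase members (Ccne1, Ccne2, Cdc6, Cdc45, Cdt1, Mcm2 to Mcm7, Pcna, Rrm1, Rrm2, Tyms and Tk1) and 24 mitotic members (Mki67, Top2a, Ccna2, Ccnb1, Ccnb2, Cdk1, Cdc20, Aurka, Aurkb, Plk1, Bub1, Bub1b, Birc5, Ube2c, Cenpa, Cenpe, Kif11, Kif20a, Kif23, Foxm1, Tpx2, Ttk, Nusap1 and Prc1). RNA had been sequenced from Lewis lung carcinoma (LLC) tumors, grown from a mouse lung tumor cell line placed in the flank and taken on day 14, in mice lacking p110 gamma (p110g-/-), the catalytic subunit of PI3K gamma encoded by Pik3cg, and in wild-type (WT) mice. CD11b+Gr1- cells sorted from the tumors, labelled tumor-associated macrophages (TAM), gave 4 p110g-/- and 4 WT libraries. Pieces of whole tumor gave 3 p110g-/- and 3 WT libraries. The labels give C57BL/6 for all groups, and the LLC cells in every group were not altered in Pik3cg as far as the labels say, so the genotype is that of the host. For the age of the mice, and for which exons of Pik3cg were deleted, no source used here has an entry. The labels do not state whether libraries of a group are different mice, so the p-values below reflect the spread among libraries, possibly a technical one.

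The values are normalized counts, read here as gene counts that the authors scaled per library and rounded to whole numbers. The formula is not stated, and a scale factor could be read from the values of only some TAM libraries. A library's total lay between 33248294 and 38153438 in TAM and between 25883561 and 27586429 in whole tumors. The targeted gene, Pik3cg, held 2203, 2211, 1210 and 1401 normalized counts in p110g-/- TAM libraries 1 to 4, against 3745, 4477, 3070 and 2748 in WT TAM libraries 1 to 4. In whole tumors it held 242, 279 and 417 in p110g-/- and 487, 616 and 527 in WT, so the genotypes did not overlap in either table. All p110g-/- libraries were below all WT libraries for 1.93% of genes tested in TAM and 15.4% in whole tumors. In limma, the test used below, Pik3cg did not pass an adjusted p of 0.05 in TAM (0.299) or whole tumors (0.0555). With the library number as a block it passed in both (limma adjusted p = 0.00557 in TAM and 0.0456 in whole tumors). The 12 macrophage markers examined were present in every TAM library, with summed levels of 320714 to 435549 normalized counts in p110g-/- and 341299 to 438912 in WT. Csf1r, the receptor of macrophage colony-stimulating factor, ranged from 44752 to 70505 in p110g-/- TAM and from 43116 to 62401 in WT TAM.

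A dividing cell copies its DNA in S phase and separates the copies in mitosis. E2F transcription factors switch on the S phase genes, which load and fire replication origins and make deoxynucleotides. The mitotic genes peak later, under B-MYB, FOXM1 and the MuvB complex, and encode the cyclins, kinases, motors and checkpoint proteins of the spindle. In resting cells the DREAM complex and RB proteins hold the genes of these phases down. Carcinoma cells run this program continuously, while macrophages that mature from monocytes divide less often.

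Promoter sequences are shown for 4 members because the S phase and mitotic members differ in what their promoters hold. The RefSeq promoter table (GRCm38.p6, 250 bases before to 50 after each start) held 14 of the 16 S phase members and 19 of the 24 mitotic members. The windows were searched on both strands for E2F letters (TTTGGCGC, TTTCGCGC, TTTCCCGC, TTTGCCGC), the box bound by NF-Y (CCAAT) and the cell cycle homology region, or CHR, through which MuvB complexes bind (TTTGAA, and also TTCGAA). Capitals mark every match on either strand, and matches can overlap. Cdt1, an origin licensing factor (chr8:122567765-122568064, plus strand), and Mcm6, a subunit of the replicative helicase (chr1:128359656-128359955, minus strand), hold E2F letters and no CHR letters. Ccnb2, cyclin B2 (chr9:70421505-70421804, minus strand), and Ube2c, an E2 enzyme of the anaphase-promoting complex (chr2:164769679-164769978, plus strand), hold CHR letters and several NF-Y boxes and no E2F letters.
Cdt1: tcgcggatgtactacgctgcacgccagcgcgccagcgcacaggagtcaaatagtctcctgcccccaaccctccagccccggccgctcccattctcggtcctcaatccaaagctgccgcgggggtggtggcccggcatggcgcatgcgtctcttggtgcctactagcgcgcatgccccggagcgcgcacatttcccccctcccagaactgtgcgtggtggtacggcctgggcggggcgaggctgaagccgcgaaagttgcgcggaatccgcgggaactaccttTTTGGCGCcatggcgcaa
Mcm6: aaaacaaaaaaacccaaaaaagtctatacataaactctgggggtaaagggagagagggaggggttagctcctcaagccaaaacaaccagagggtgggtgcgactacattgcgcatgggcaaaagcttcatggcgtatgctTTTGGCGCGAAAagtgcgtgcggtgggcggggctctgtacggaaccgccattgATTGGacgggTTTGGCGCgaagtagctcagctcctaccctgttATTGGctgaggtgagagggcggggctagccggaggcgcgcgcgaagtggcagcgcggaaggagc
Ccnb2: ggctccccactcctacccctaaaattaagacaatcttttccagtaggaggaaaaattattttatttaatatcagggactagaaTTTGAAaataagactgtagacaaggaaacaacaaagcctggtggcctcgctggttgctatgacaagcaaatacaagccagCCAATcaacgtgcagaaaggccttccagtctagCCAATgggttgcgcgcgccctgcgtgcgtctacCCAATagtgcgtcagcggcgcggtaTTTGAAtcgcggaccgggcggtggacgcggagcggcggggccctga
Ube2c: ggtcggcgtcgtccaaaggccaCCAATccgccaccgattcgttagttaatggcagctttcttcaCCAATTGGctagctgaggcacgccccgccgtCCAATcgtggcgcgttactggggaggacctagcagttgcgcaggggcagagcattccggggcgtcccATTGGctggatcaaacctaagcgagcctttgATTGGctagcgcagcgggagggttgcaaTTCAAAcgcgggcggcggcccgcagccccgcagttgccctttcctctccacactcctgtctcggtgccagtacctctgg

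A gene was counted if any of its promoter windows held a match. CHR letters were found in 15 of 19 mitotic members (78.9%) and in 3 of 14 S phase members (21.4%). They were found in 21.7% of all 27025 genes of the RefSeq promoter table and 16.8% of the 10238 genes of the deposited tables that have a promoter there. The NF-Y box was found in 17 mitotic members (89.5%) and 9 S phase members (64.3%), against 41.1% of all genes and 42.9% of those in the deposited tables. E2F letters were found in 6 S phase members (42.9%) and in 1 mitotic member (5.26%), Cdk1. They were found in 2.60% of all genes and 4.61% of those in the deposited tables, so the mitotic share was close to the latter. The motifs and the members were chosen together, so these shares describe the lists and were not tested, and a match is not shown to be a working site.

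**Figure D1:**
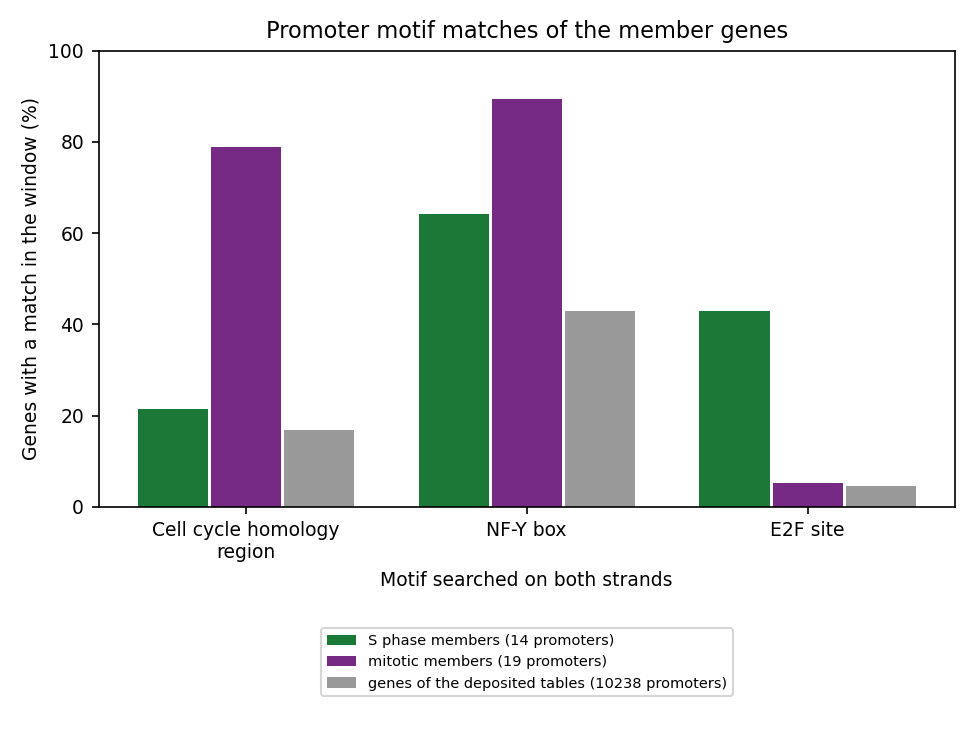
Share of genes (%) whose 300-base promoter window holds each motif, for the S phase members, the mitotic members and all genes of the deposited tables that have a promoter in RefSeq. The mitotic members stand at 78.9% for the cell cycle homology region and the S phase members at 42.9% for E2F letters.

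In sorted TAM the 40 members differed more between library numbers than between genotypes. The labels number the libraries of each genotype 1 to 4 without saying what a number marks. All 40 members were lower in both libraries numbered 1 than in each of the other 6, a pattern shown by 24% of the 12475 genes tested in TAM. WT TAM library 1 was the lowest of the 8 libraries for all 40. At the other end, 31 members were higher in both libraries numbered 2 than in each of the other 6, namely 8 of 16 S phase members and 23 of 24 mitotic members, against 9.78% of the genes tested. The single highest library was p110g-/- TAM 2 for 30 members, 23 of them mitotic. The shares of all genes with WT TAM 1 lowest or p110g-/- TAM 2 highest were not counted.

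The size of these differences depended on the phase. From the libraries numbered 1 to those numbered 2, averaged over the genotypes on the log2 scale, the S phase members differed by a median of 1.18 and the mitotic members by 1.65, while the median over all genes tested was 0.04. Cdc20, the activator of the anaphase-promoting complex, had the widest spread of any member. It held 453, 1366, 857 and 831 normalized counts in p110g-/- TAM 1 to 4, against 218, 1173, 971 and 1055 in WT TAM 1 to 4. Its highest value was 6.27 times its lowest. Rrm2, the small subunit of ribonucleotide reductase, was the most variable S phase member, with 993, 2591, 2030 and 1763 in p110g-/- TAM and 503, 2248, 1965 and 1996 in WT TAM. Pcna, the sliding clamp of DNA polymerases, was the steadiest member, with 5640, 6444, 5967 and 6123 in p110g-/- TAM and 4776, 6727, 6043 and 6577 in WT TAM. Over the 8 libraries the ratio of highest to lowest had a median of 2.89 for S phase members and 4.35 for mitotic members, with Pcna (1.41) and Cenpa (2.11), the centromeric histone H3 variant, at the low ends.

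The libraries numbered 2 also stood above the mean of those numbered 3 and 4, by a median log2 difference of 0.54 for mitotic and 0.21 for S phase members, against 0.00 over all genes tested. In the helicase, Mcm5 held 1889, 3934, 2956 and 2649 in p110g-/- TAM 1 to 4 and 1054, 3805, 3268 and 3680 in WT TAM 1 to 4. Among mitotic kinases, Plk1, which drives spindle assembly and mitotic exit, held 400, 1407, 706 and 663 in p110g-/- TAM and 305, 1217, 793 and 826 in WT TAM. Library 2 of each genotype therefore stood well above libraries 3 and 4 for Plk1, while WT libraries 2 and 4 were close for Mcm5. Ccne2, a cyclin of S phase entry, ran the other way, with 523 in p110g-/- TAM 2 and 561 and 651 in p110g-/- TAM 3 and 4, against 475 in WT TAM 2 and 639 in each of WT TAM 3 and 4.

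**Figure D2:**
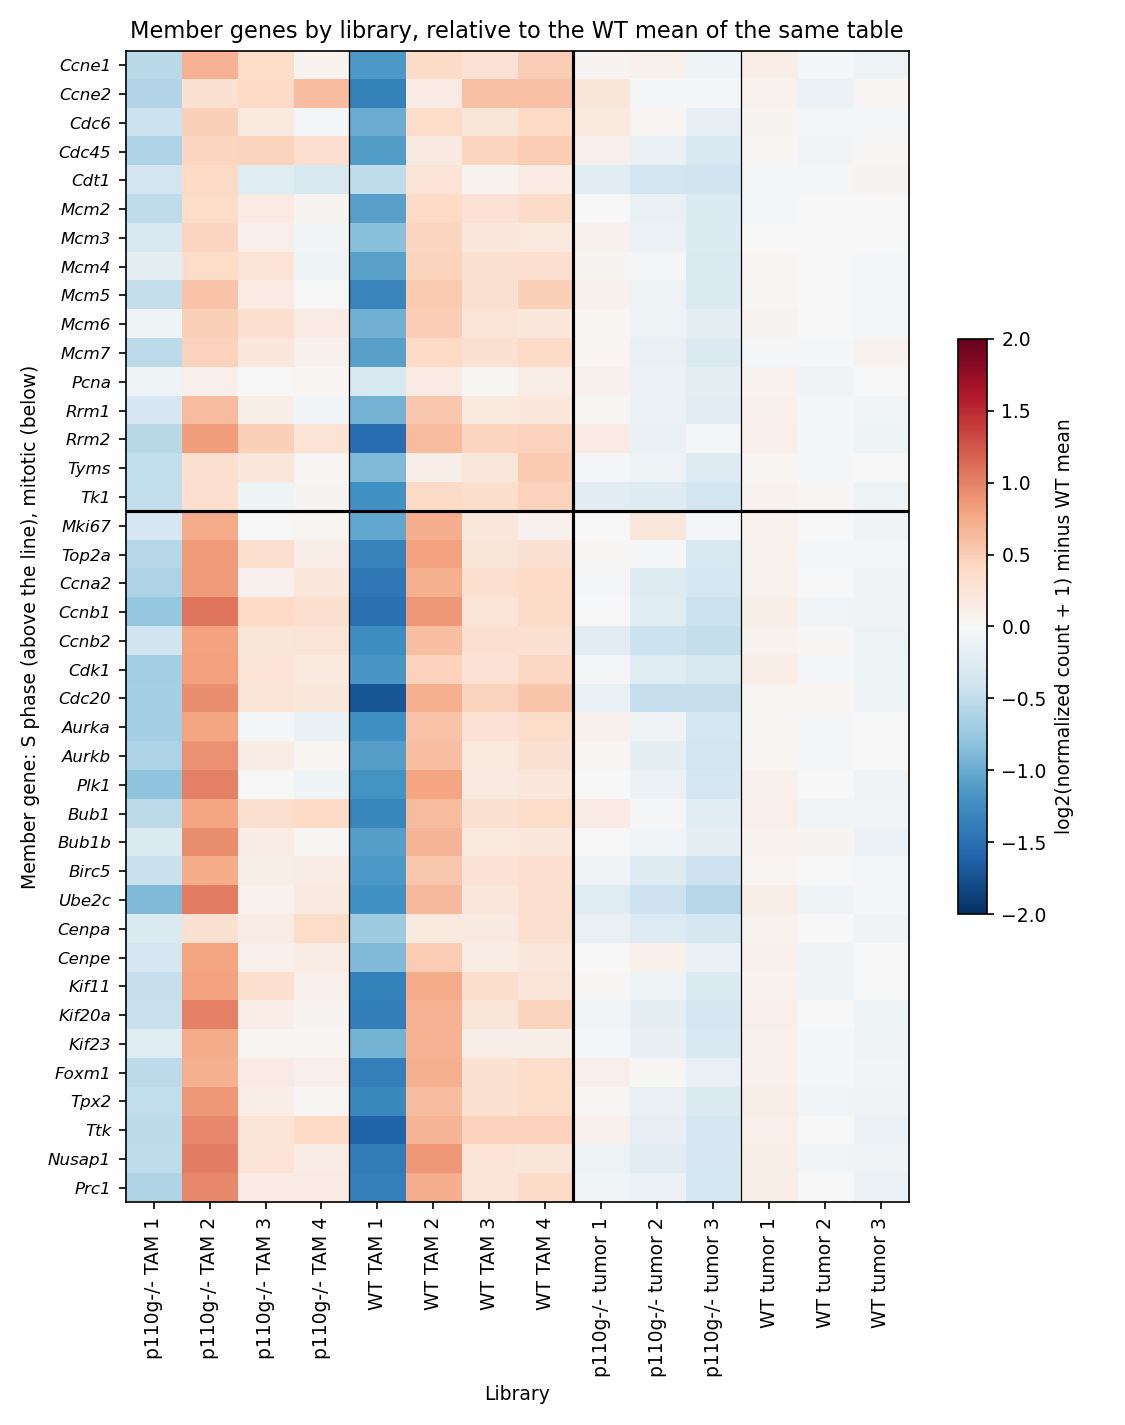
Each member (rows) in each library (columns), as log2(normalized count + 1) minus the mean of the WT libraries of the same table; red is above and blue below that mean. WT TAM 1 is the lowest TAM library for all 40 members, and the whole tumor libraries span a much narrower range than the TAM libraries.

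Other measured properties moved with the library number in TAM. The summed level of 9 fibroblast and matrix markers was 767, 9150, 43245 and 31725 normalized counts in p110g-/- TAM 1 to 4 and 2684, 27047, 50275 and 56171 in WT TAM 1 to 4, lowest in number 1. The summed level of 7 monocyte markers was 83743, 43310, 25737 and 29947 in p110g-/- and 83912, 45040, 37114 and 34244 in WT, highest in number 1. Most of it was Ccr2, at 69414 in p110g-/- TAM 1. Ly6c2 held 315, 80, 149 and 134 in p110g-/- TAM, against 1415, 475, 396 and 483 in WT TAM. With the library number as a block, Ly6c2 (limma adjusted p = 0.00604, against 0.36 without) and Plac8 (0.00805, against 0.999) were called lower in p110g-/-. No other monocyte marker was called. The 7 neutrophil markers found summed to 3308 and 4321 in p110g-/- TAM 1 and WT TAM 1 and to 1288 to 1846 in the other 6 libraries, with Retnlg listed at 0 in both libraries numbered 2. Csf3r and Mmp8 made up most of the sum, at 2180 and 704 in p110g-/- TAM 1 and 1932 and 1999 in WT TAM 1. S100a9 held 49, 8, 104 and 93 in p110g-/- TAM and 74, 14, 46 and 84 in WT TAM. S100a9 and Retnlg were highest in neither library numbered 1, while the other markers found were highest in number 1 of each genotype. The 5 carcinoma markers found did not move together. The keratins Krt8 and Krt18 were lowest in the libraries numbered 1, and Krt8 held 46, 197, 1569 and 1194 in p110g-/- TAM and 76, 499, 1573 and 1648 in WT TAM. The other 3 were not lowest in number 1 in both genotypes: Cdh1, E-cadherin, held 2107, 3774, 1801 and 2294 in p110g-/- TAM and 2453, 1428, 1177 and 1008 in WT TAM, Krt7 held 58 to 62 in p110g-/- and 43 to 74 in WT TAM, and Epcam 18 to 39 in p110g-/- and 2 to 9 in WT TAM. The 5 markers summed to 2280 to 4802 in p110g-/- TAM and 2489 to 4086 in WT TAM, and none was at 0 in any library. Most of the sum in number 1 was Cdh1 (2107 in p110g-/- and 2453 in WT), so it does not follow the keratins. In whole tumors, normalized separately, Krt8 held 4539 to 7911 and Krt18 4561 to 6878, above all TAM libraries. There Cdh1 held 94 to 604, below all TAM libraries, Krt7 26 to 50 and Epcam 2 to 11. The share of counts from 13 mitochondrial genes was 2.73%, 3.21%, 9.01% and 14.4% in p110g-/- TAM 1 to 4 and 2.51%, 3.06%, 7.70% and 9.59% in WT TAM. Their part in the pattern of the members was not tested. In bulk RNA, fewer dividing cells and less of these RNAs per cell cannot be told apart.

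**Figure D3:**
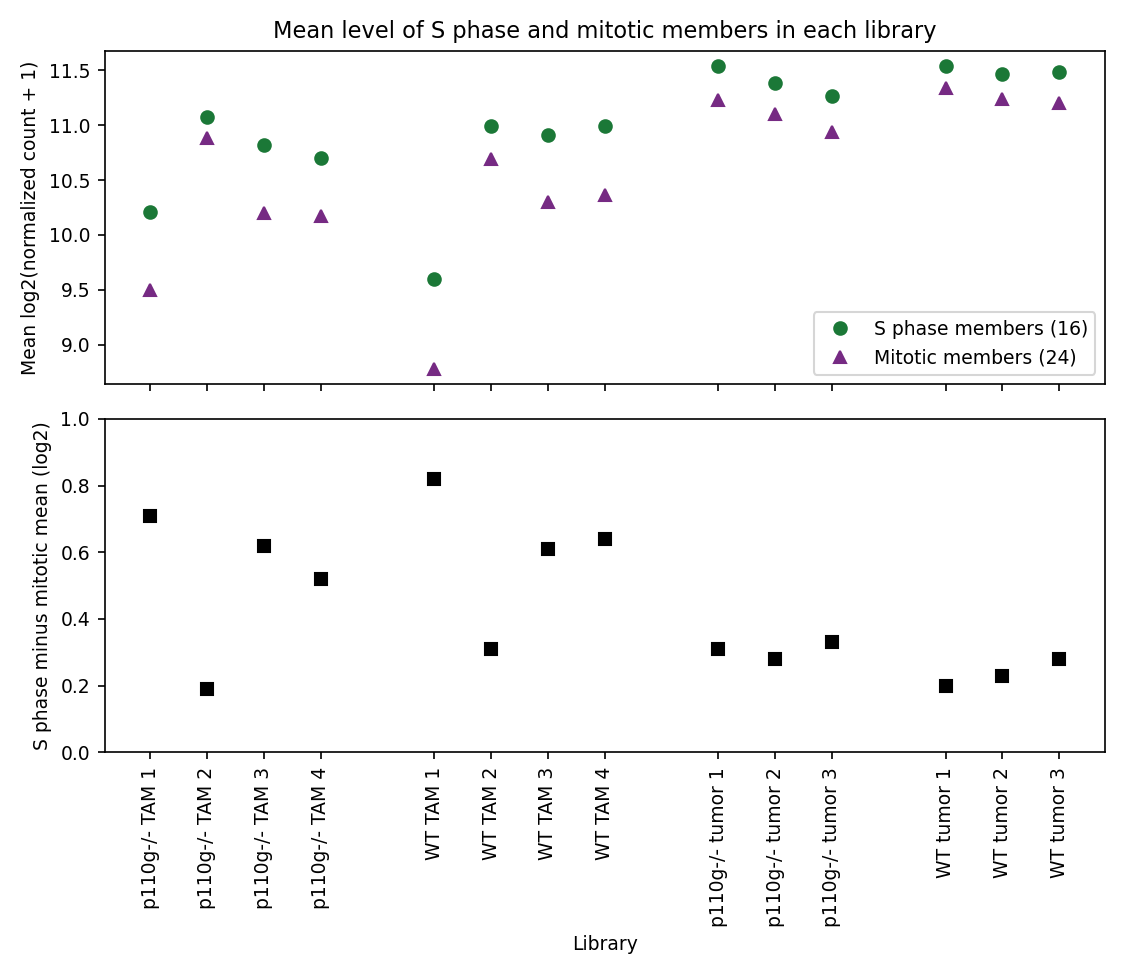
Upper panel, mean log2(normalized count + 1) of the 16 S phase and 24 mitotic members in each library; lower panel, the S phase mean minus the mitotic mean (log2). Among the TAM libraries of each genotype, the difference is smallest in number 2 (0.19 in p110g-/- and 0.31 in WT) and largest in number 1 (0.71 in p110g-/- and 0.82 in WT); the tumor libraries lie between 0.20 and 0.33.

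The mean of the S phase members minus that of the mitotic members, on the log2(normalized count + 1) scale, sums this up per library. These means are not corrected for transcript length, so only their differences between libraries are read. The difference was 0.71, 0.19, 0.62 and 0.52 in p110g-/- TAM 1 to 4, against 0.82, 0.31, 0.61 and 0.64 in WT TAM 1 to 4. It was 0.31, 0.28 and 0.33 in p110g-/- tumors 1 to 3, against 0.20, 0.23 and 0.28 in WT tumors 1 to 3. The TAM groups averaged 0.51 ± 0.23 in p110g-/- and 0.59 ± 0.21 in WT (SD, n = 4 each). The p110g-/- library minus the WT library of the same number was −0.11, −0.11, 0.01 and −0.11 for numbers 1 to 4, from unrounded means, and was not tested. The tumor groups averaged 0.31 ± 0.03 in p110g-/- and 0.24 ± 0.04 in WT (SD, n = 3 each), with p110g-/- tumor 2 and WT tumor 3 both at 0.28.

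The comparison of p110g-/- with WT TAM asked whether loss of the host's PI3K gamma was accompanied by a different level of the proliferation program in tumor macrophages. No member passed the test, with limma on log2(normalized count + 1) and an adjusted p below 0.05 over all genes tested as the threshold. Of all 12475 genes, 0.0721% were called higher and 0.0401% lower in p110g-/-. No member had an unadjusted p below 0.05, against 732 of the 12475 genes. With the library number as a block, where 1.01% of genes were called higher and 1.49% lower, no member was called. In that fit no member had an unadjusted p below 0.05 either, against 2327 of the 12475 genes. No member was free of overlap between the genotypes, against 2.37% of genes tested with all p110g-/- libraries above WT and 1.93% with all below.

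Among the S phase members, Pcna averaged 6044 ± 334 normalized counts in p110g-/- TAM and 6031 ± 887 in WT TAM (SD, n = 4 each), with a log2 fold change of 0.01 (SE 0.12). Mcm6 held 4196, 6192, 5593 and 4988 in p110g-/- TAM, against 2286, 6324, 5324 and 5200 in WT TAM, with a log2 fold change of 0.21 (SE 0.30). In each genotype library 1 was the lowest and library 2 the highest, and the genotypes overlapped. Mcm3, another helicase subunit, held 2828, 4699, 3745 and 3389 in p110g-/- TAM, against 1972, 4710, 4069 and 3999 in WT TAM, with a log2 fold change of 0.04 (SE 0.28). The log2 fold changes of all 16 S phase members ran from −0.13 (Cdt1) to 0.26 (Rrm2), with 14 above 0 and a median of 0.06, against −0.01 over all genes tested.

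Among the mitotic members, Top2a, the topoisomerase that untangles sister chromatids, held 2701, 7272, 5047 and 4375 in p110g-/- TAM, against 1580, 6968, 4722 and 4970 in WT TAM (log2 fold change 0.19, SE 0.47). Mki67, which encodes the proliferation antigen Ki-67, held 3277, 6910, 4116 and 4247 in p110g-/- TAM, against 2020, 6903, 4814 and 4425 in WT TAM (log2 fold change 0.10, SE 0.37). For both genes the SD within each genotype was larger than the gap between the genotype means. Ccna2, cyclin A2, which acts from S phase into mitosis, held 1094, 3024, 1778 and 1940 in p110g-/- TAM, against 622, 2729, 2080 and 2211 in WT TAM (log2 fold change 0.14, SE 0.49). Of the 24 mitotic members 23 had a log2 fold change above 0, with a range of −0.01 (Aurka) to 0.27 (Ttk) and a median of 0.16. Over all genes tested 46.8% were above 0. Members share their libraries, so their signs are not separate observations. The adjusted p was 0.999 for each of the 40 members in limma without the block, the fit that gave the SEs above. With the block the SE was 0.07 for Pcna, 0.16 for Mcm6 and 0.12 for Mcm3. It was 0.15 for Top2a, 0.14 for Mki67 and 0.17 for Ccna2, and the smallest adjusted p of a member was 0.355 (limma).

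Comparing libraries of the same number gave signs that turned with the number. In number 1 the p110g-/- library was higher than the WT library for 40 of 40 members, against 47.9% of all genes tested, by a median log2 difference of 0.59 for S phase and 0.77 for mitotic members. In number 2 it was higher for 34 members, against 46.7% of all genes tested, by medians of 0.08 and 0.21. In number 3 it was higher for 8 members, against 46.7% of all genes tested, with medians of −0.06 and −0.09. In number 4 it was higher for 3 members, against 45.4% of all genes tested, with medians of −0.31 and −0.18. Without WT TAM 1 the median log2 fold change was −0.26 for S phase and −0.25 for mitotic members, and without p110g-/- TAM 2 it was −0.08 and −0.06. Without both libraries numbered 1, an alternative chosen after the data were seen, the medians were −0.11 and −0.02.

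The other genes of these pathways come from lists that hold no member. In TAM none of 40 replication machinery genes, such as polymerases, origin recognition and GINS subunits, was called, with 22 above 0 and a median log2 fold change of 0.01. None of 47 mitotic machinery genes, such as kinetochore and condensin subunits, was called, with 41 above 0 and a median of 0.13. Over all genes tested in TAM 46.8% were above 0, with a median of −0.01. Of 23 genes that control transcription of the cycle none was called without the block. With the block, Rb1, the retinoblastoma protein that holds E2F in check, was higher in p110g-/- (adjusted p = 0.0109 with limma, against 0.909 without the block). It held 4420, 3664, 2739 and 2720 normalized counts in p110g-/- TAM 1 to 4, against 3131, 2759, 2090 and 1885 in WT TAM 1 to 4, a log2 fold change of 0.46. In each number the p110g-/- library was the higher, although the ranges of the genotypes overlapped.

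In whole tumors the comparison of p110g-/- with WT asked the same of the tumor mass, in which LLC cells and host cells are mixed. The test called 3 of the 40 members (7.5%) lower and none higher, against 2.10% of the 12717 genes tested called lower and 2.25% called higher. These 3 were Cdt1, Ccnb2 and Ube2c. In 8 members (20.0%) all p110g-/- tumors were below all WT tumors, against 15.4% of genes tested; they were the S phase members Cdt1 and Tk1 and the mitotic members Ccnb2, Cdc20, Birc5, Ube2c, Cenpa and Nusap1. No member was higher without overlap, against 15.7% of genes tested.

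Cdt1, which brings the MCM helicase to origins, held 2424, 2165 and 2136 normalized counts in p110g-/- tumors 1 to 3, against 2765, 2744 and 2932 in WT tumors 1 to 3. The genotypes did not overlap, and Cdt1 was lower in p110g-/-, with a log2 fold change of −0.33 (SE 0.06) and an adjusted p of 0.0331 in limma. Ccnb2, a partner of the mitotic kinase CDK1, held 1989, 1730 and 1671 in p110g-/- tumors, against 2461, 2376 and 2167 in WT tumors. It was lower in p110g-/- without overlap, by limma at a log2 fold change of −0.38 (SE 0.08) and an adjusted p of 0.0413. Ube2c, which starts the ubiquitin chains that mark mitotic cyclins for destruction, held 1943, 1727 and 1546 in p110g-/- tumors, against 2500, 2162 and 2254 in WT tumors. Again p110g-/- was lower without overlap, by limma at a log2 fold change of −0.41 (SE 0.09) and an adjusted p of 0.0498. In the authors' deposited table, whose column pp runs from 0 to 1 and has no stated meaning, Ccnb2 is the 1 member with a pp above 0.95 in whole tumors (0.964).

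Each of these 3 calls was lost when WT tumor 1, 2 or 3, p110g-/- tumor 2 or p110g-/- tumor 3 was left out, with an adjusted p of 0.0687 to 0.145, and each was kept without p110g-/- tumor 1 (0.0108 to 0.0169). None of the 3 was called with all 14 libraries in a single fit, and Ube2c was not called with library totals made equal (adjusted p = 0.0555 with limma).

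The members next in order were Tk1, Cdc20 and Cenpa, which did not pass. Tk1, thymidine kinase of the nucleotide salvage pathway, held 2339, 2250 and 2099 in p110g-/- tumors, against 2831, 2771 and 2509 in WT tumors (limma log2 fold change −0.28 with SE 0.06 and adjusted p = 0.0555). Cdc20 held 2581, 2071 and 2066 in p110g-/- tumors, against 2920, 2934 and 2693 in WT tumors (−0.35, SE 0.09, adjusted p = 0.0669). Their values did not overlap between genotypes. Cenpa held 1874, 1729 and 1639 in p110g-/- tumors, against 2169, 2067 and 1977 in WT tumors, also without overlap (−0.25, SE 0.06, adjusted p = 0.0691).

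The most abundant members did not pass either. Pcna averaged 7983 ± 765 normalized counts in p110g-/- and 8353 ± 410 in WT tumors (SD, n = 3 each; log2 fold change −0.07, SE 0.08). Mcm6 averaged 7648 ± 556 in p110g-/- and 8065 ± 254 in WT tumors (−0.08, SE 0.06), and Mcm3 6036 ± 757 in p110g-/- and 6453 ± 53.4 in WT tumors (−0.10, SE 0.08). These gaps were within the SD of the p110g-/- tumors. Top2a averaged 11566 ± 1433 in p110g-/- and 12367 ± 533 in WT tumors (−0.10, SE 0.09). Ccna2 held 4212, 3598 and 3371 in p110g-/- tumors, against 4548, 4302 and 4122 in WT tumors (−0.22, SE 0.08, adjusted p = 0.154 with limma), with p110g-/- tumor 1 above WT tumor 3. Mki67 ran the other way, with 5965, 7001 and 5909 in p110g-/- tumors, against 6329, 5975 and 5706 in WT tumors (0.06, SE 0.08).

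Over the whole set, 13 of 16 S phase members and 23 of 24 mitotic members had a log2 fold change below 0, against 48.4% of all genes tested. The median was −0.10 for S phase and −0.17 for mitotic members, against 0.01 over all genes. The members above 0 were Ccne1 (0.02), Ccne2 (0.06) and Cdc6 (0.02), which act at S phase entry, and Mki67. Foxm1, the transcription factor of the mitotic genes, was at 0.00, with 2167, 2053 and 1826 in p110g-/- tumors and 2127, 1975 and 1946 in WT tumors. By role, the helicase subunits Mcm2 to Mcm7 lay between −0.14 and −0.08. The spindle checkpoint genes lay at −0.03 (Bub1), −0.08 (Bub1b) and −0.14 (Ttk), and the motor genes between −0.19 (Kif20a, of cytokinesis) and −0.01 (Cenpe, of chromosome alignment).

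**Figure D4:**
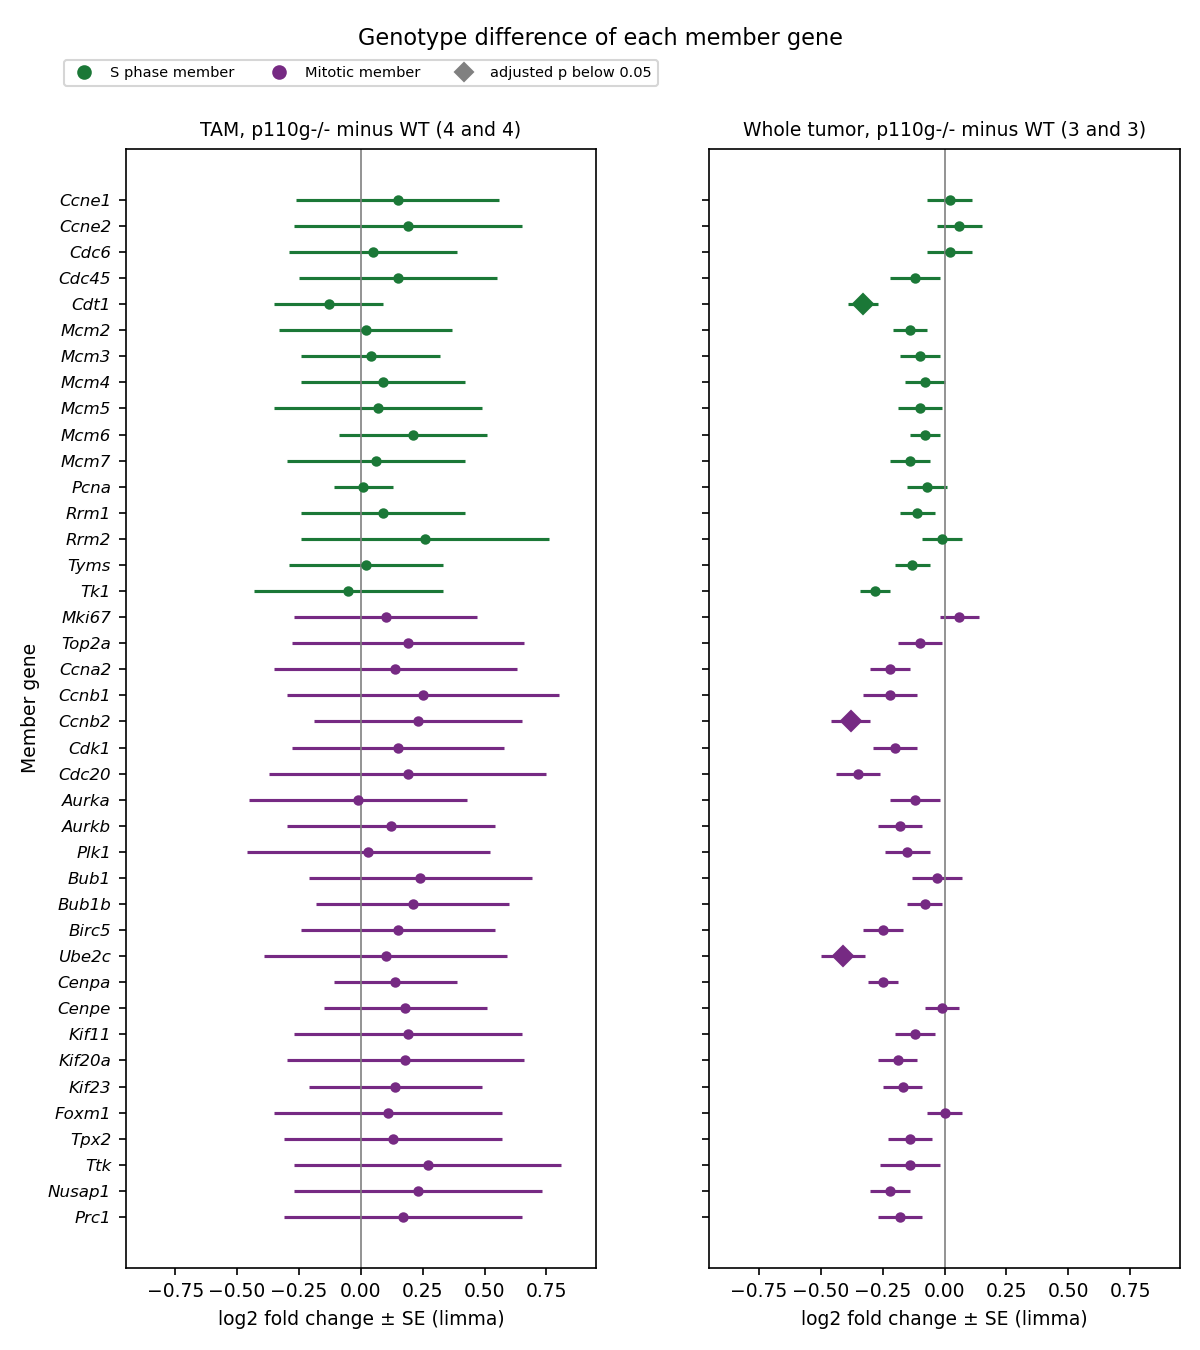
Log2 fold change of p110g-/- over WT for each member in TAM (left; 4 and 4 libraries) and whole tumors (right; 3 and 3 libraries), with bars for the standard error from limma; diamonds mark an adjusted p below 0.05. The 3 diamonds are Cdt1, Ccnb2 and Ube2c in whole tumors. The fit shown has no block for the library number, and every interval of 1 SE in TAM spans 0. With the block the TAM standard errors have a median of 0.15, against 0.42 without. Some intervals then leave out 0, such as that of Ccnb1 (0.25, SE 0.13), although no member is called.

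The mitotic mean fell with the library number in both genotypes, over a wider range in p110g-/- tumors. Library 3 of p110g-/- was the lowest of the 6 tumors for 36 of 40 members, and WT tumor 1 was the highest for 23. How often these libraries were lowest or highest over all genes was not counted. The mitotic mean on the log2 scale was 11.23, 11.10 and 10.94 in p110g-/- tumors 1 to 3, against 11.34, 11.24 and 11.20 in WT tumors 1 to 3. The S phase mean was 11.54, 11.38 and 11.27 in p110g-/- tumors, against 11.54, 11.47 and 11.48 in WT tumors, so p110g-/- tumor 1 was level with WT tumor 1. The ratio of highest to lowest over the 6 tumors had a median of 1.27 for S phase and 1.35 for mitotic members, with Ube2c widest at 1.62. Without p110g-/- tumor 3 the median log2 fold change was −0.02 for S phase and −0.08 for mitotic members.

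Markers of other cells also differed between these tumors. The 12 macrophage markers summed to 51693, 58623 and 75169 normalized counts in p110g-/- tumors 1 to 3 and 48307, 56104 and 68117 in WT tumors 1 to 3, and none was called. Their sum rose with the library number in both genotypes and was highest in p110g-/- tumor 3. The 9 T cell markers found summed to 635, 571 and 764 in p110g-/- tumors and 140, 245 and 344 in WT tumors, and 5 of the 9 were called higher. Of the 4 carcinoma markers tested, Krt8 and Krt18 were called lower, and the 5 found summed to 10109, 9311 and 10659 in p110g-/- tumors and 13999, 14796 and 15097 in WT tumors. The 8 endothelial markers summed to 1681, 1774 and 2033 in p110g-/- tumors and 997, 1610 and 1088 in WT tumors, with all 8 above 0 and none called. No marker was at 0 in any tumor. The part of these markers in the members' difference was not tested.

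The pathway lists without members showed no call in whole tumors. The 40 replication machinery genes had 34 below 0 and a median log2 fold change of −0.09, and the 47 mitotic machinery genes had 41 below 0 and a median of −0.11. The 23 control genes had 10 below 0 and a median of 0.01, the same as over all genes. The smallest adjusted p in these lists was 0.0697 among replication machinery genes.

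Whether the genotype effect differed between TAM and whole tumor was tested as an interaction over all 14 libraries, as the TAM log2 fold change minus the tumor log2 fold change. No member was called, against 0.0403% of the 12396 genes tested called higher and 0.105% lower, and no member had an unadjusted p below 0.05. With the library number as a block, where 0.428% of genes were called higher and 2.21% lower, no member was called. In that fit 4 of the 40 members, all mitotic, had an unadjusted p below 0.05, against 2318 of the 12396 genes tested. The difference was above 0 for all 40 members, with a median of 0.17 for S phase and 0.33 for mitotic members, against −0.02 over all genes tested. Members share their libraries, so this is not 40 separate observations. Without WT TAM 1 the medians were −0.17 and −0.10. For Cdt1 the log2 fold change was −0.13 in TAM and −0.33 in whole tumor, a difference of 0.20 (SE 0.28, adjusted p = 1 with limma).

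Levels in TAM were compared with those in whole tumors as CPM, the normalized counts per 1000000 of each library's total, without a test, since the tables were normalized separately. In 38 of 40 members every TAM library was below every tumor library, against 42.0% of 12345 genes with a mean of at least 10 normalized counts in both tables. The exceptions were the S phase members Cdt1 and Tk1. The median ratio of TAM to tumor was 0.49 in p110g-/- and 0.48 in WT for S phase members, and 0.43 in p110g-/- and 0.38 in WT for mitotic members, against 0.80 and 0.85 over those 12345 genes. The lowest ratios were those of Cdc45, a helicase cofactor, at 0.30 in p110g-/- and 0.28 in WT, and of Cdc20, at 0.30 in p110g-/- and 0.24 in WT. All members together made up 2076 ± 626 CPM in p110g-/- TAM and 2097 ± 809 in WT TAM (SD, n = 4 each), against 4565 ± 389 in p110g-/- tumors and 4826 ± 197 in WT tumors (SD, n = 3 each). By library the sum was 1475, 2933, 2100 and 1796 CPM in p110g-/- TAM 1 to 4, and 933, 2806, 2301 and 2347 in WT TAM 1 to 4. The highest TAM library, p110g-/- TAM 2, thus remained below the lowest tumor, p110g-/- tumor 3, at 4128 CPM. The carcinoma keratin Krt8 held 1194 to 1648 normalized counts in TAM libraries 3 and 4 and 46 and 76 in those numbered 1. In whole tumors Krt8 held 4539 to 7911. How much of the members' level in TAM libraries came from other tumor cells was not tested.

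**Figure D5:**
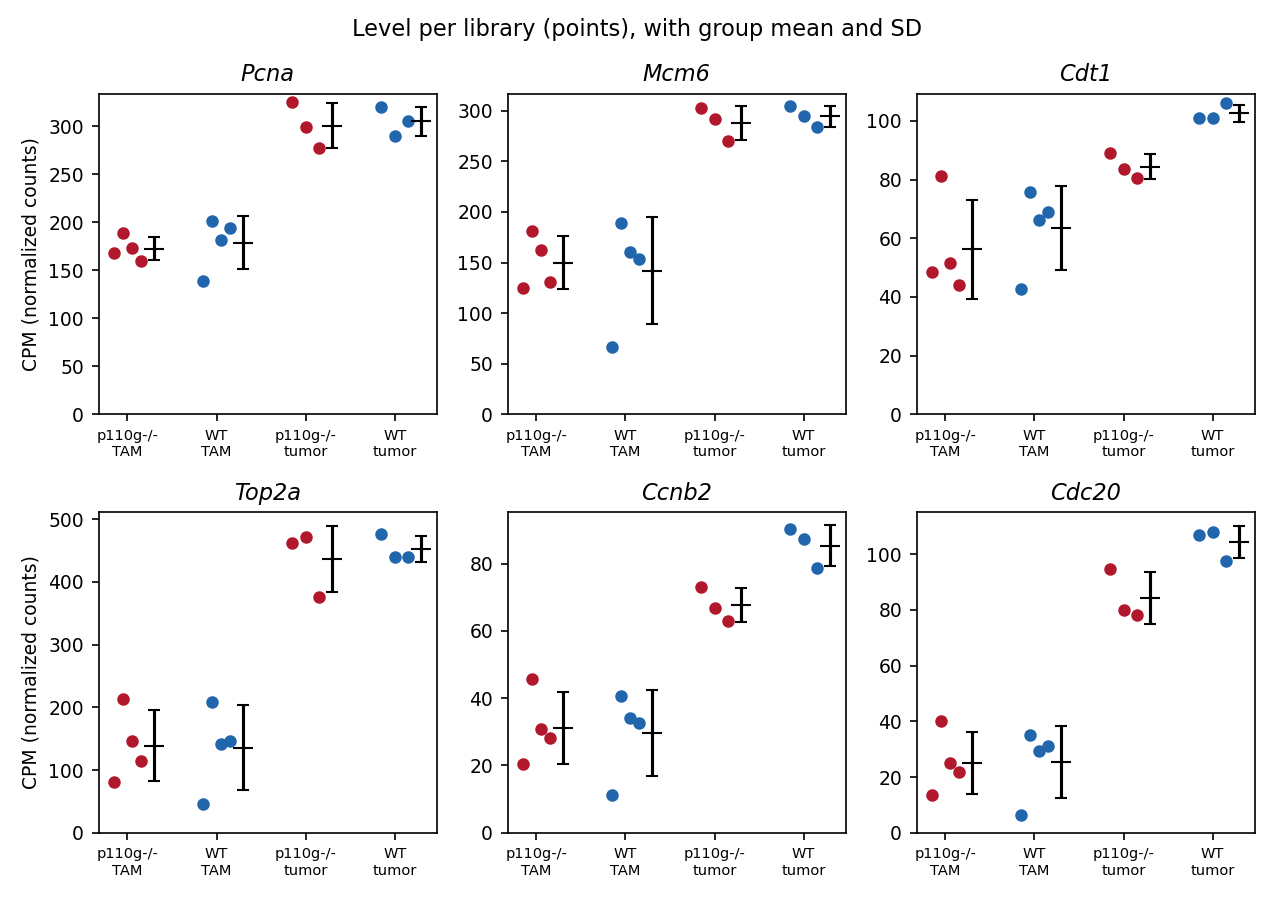
Level in CPM, per 1000000 of the library's total, of 3 S phase members (upper row) and 3 mitotic members (lower row) in each library, with group mean and SD beside the points. For Cdt1 the TAM and tumor libraries overlap, and for the other 5 genes every TAM library lies below every tumor library.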

How the data were processed

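The submitters' processing notes name the aligner Bowtie2, the package DESeq and the build mm9, without versions. The counter, the annotation and the normalization formula are not stated there. The authors deposited whole numbers that are read here as a score, not raw counts: gene counts scaled per library and rounded. The values show this in 6 TAM libraries, where whole numbers were skipped at a regular period. That gave 1.08 to 1.94 normalized counts per read and an estimated 19.7 to 31.0 M reads in genes (M, 1000000). In the other 8 none was skipped, so a read was worth at most 1 unit if these were scaled in the same way. The authors' pp column, with values from 0 to 1, has no stated meaning. Labels give 30 mg of tumor or 1000000 sorted cells per RNA extraction.

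The 40 members and all lists were chosen with earlier results of these data known. Genes with at least 10 normalized counts in 4 TAM or 3 tumor libraries, as many as the smaller group holds, were tested with limma 3.58.1 (R 4.3.3) on log2(normalized count + 1), two-sided, with a mean-dependent prior and Benjamini-Hochberg adjustment over all genes tested. Fold changes are on that scale. Full statistics are given for members called with or without the block and for the 3 most abundant members of each phase in each table. On data simulated for the TAM comparison the fit recovered 98% of 2-fold changes, for the tumor comparison 89% and for the interaction 51%. The simulation gave every gene the same fixed dispersion and no difference between library numbers. In the real TAM libraries the within-genotype SD of the log2 list mean was 0.55 for S phase and 0.72 for mitotic members. The simulated shares therefore do not show what size of member change would be called in TAM. Deviations from the group mean of same-numbered TAM libraries correlated over 12475 genes at 0.847, 0.472, 0.808 and 0.702, so the numbers pair the TAM libraries in these data, although those numbered 4 correlated as well with number 3 of the other genotype (0.704). The block values stand beside a TAM result where they change a call. Whether other genes share reads with a member was not analysed here.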

Additional observations from a re-analysis of the deposited data

Results flagged for a closer look

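In 7 of the 40 members 1 of the 4 WT TAM libraries lay far from the other 3. The gap to the nearest library, as a share of the whole range, was above Dixon's 95% critical value for 4 samples, and in all 7 the distant library was WT TAM 1, on the low side. The share was 0.830 for Cdc6, 0.888 for Mcm2, 0.849 for Mcm4, 0.892 for Mcm7, 0.838 for Rrm2 and 0.897 for Tk1, all S phase members, and 0.831 for Cdk1, the kinase of mitotic entry. For the mean log2 level of the S phase members in WT TAM it was 0.936. In p110g-/- TAM the share was 0.858 for Cdc45, with library 1 low, and 0.869 for Cdt1, with library 2 high. Chance gives such a share in about 1 in 20 groups, and members measured in the same libraries are not independent. The rule was not run over all genes, so these counts do not show a trait of the members. Both libraries numbered 1 were below the other 6 for 24% of all genes tested in TAM.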

How the results depend on the processing

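Other pseudocounts, filters and scalings changed no count of members called by more than 1.5 times in any comparison. In TAM and in the interaction 0 members were called under every alternative run. In whole tumors 3 members were called lower, 6 with the replicate block (adding Tk1, Cdc20 and Cenpa, adjusted p 0.0300 to 0.0461 with limma; all genes 439 higher and 320 lower), and 0 with all 14 libraries in a single fit. Leaving out single libraries gave 0 to 13 members: 13 without p110g-/- tumor 1, where 1021 of all genes were called lower, and 0 without any other. Without both tumor libraries numbered 3, chosen after seeing the data, it was 0. Over all 12717 genes tested, tumor libraries of the same number correlated only at 0.0763 to 0.178, so the main tumor fit does not pair them. The mitotic mean and the macrophage sum nevertheless followed the tumor number in both genotypes. Apart from Rb1 the replicate block changed no other call of the members or their pathway lists in TAM. In tumors it called Tipin (adjusted p = 0.0360) and Racgap1 (0.0433). Ube2c missed the threshold with a pseudocount of 0.5 (adjusted p = 0.05) and with equal totals (0.0555). Without Mki67 and Ccna2 the S phase mean minus the mitotic mean was 0.41 in p110g-/- and 0.33 in WT tumors.

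Signs turned for small log2 fold changes. With equal library totals the TAM values were −0.04 for Pcna and −0.01 for Mcm3. Without both TAM libraries numbered 1, also chosen after seeing the data, they were −0.06 for Pcna, −0.01 for Mcm6, −0.12 for Mcm3, −0.01 for Top2a, −0.09 for Mki67 and −0.09 for Ccna2. Leaving out single TAM libraries gave −0.09 to 0.07 for Pcna, −0.11 to 0.38 for Mcm6, −0.24 to 0.18 for Mcm3, −0.26 to 0.45 for Top2a, −0.24 to 0.35 for Mki67 and −0.34 to 0.39 for Ccna2. In whole tumors they gave −0.01 to 0.11 for Mki67 and −0.17 to 0.00 for Top2a. The cause was not tested. With 3 or 4 libraries a group, TAM standard errors of the members had a median of 0.42 on the log2 scale without the block and 0.15 with it, which limits the size of difference that can be called in each fit.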
